A study of Mus musculus with 4 samples.

Results

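Small nucleolar RNA genes were the 119 rows of the expression table of F123-ESCs whose MGI symbol begins with Snord or Snora and a digit, or with Scarna, out of 24026 genes. They hold 74 Snord, 36 Snora and 9 Scarna genes and were chosen by name alone. F123-ESCs are a male mouse embryonic stem cell line from a cross of a S129 mother and a CAST father, so that SNPs between the strains tell the maternal from the paternal copy of each autosome. All 4 libraries, replicates 1 to 4, came from untreated cells of this line, grown first on feeder fibroblasts and then without them, and harvested about 48 h after plating. RNA was enriched for polyA and sequenced as stranded libraries with paired reads of 150 bp. The labels do not say that the libraries came from separate cultures, and the p-values below then measure only the spread between these samples, which may be technical.

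Small nucleolar RNAs are short noncoding RNAs that guide chemical modification of other RNAs by base pairing. Box C/D RNAs (Snord) carry a C box near the 5′ end and a D box near the 3′ end, bind fibrillarin, and guide ribose methylation. Box H/ACA RNAs (Snora) carry an H box in a hinge between hairpins and an ACA motif just before the 3′ end, bind dyskerin, and guide pseudouridylation. Small Cajal body RNAs (Scarna) have one or both kinds of box and act on spliceosomal RNAs in the Cajal body. Most mammalian small nucleolar RNAs are cut from introns of host genes, and a few have promoters of their own. Mature small nucleolar RNAs have no polyA tail, and many are shorter than the reads of these libraries. The values below are therefore reads assigned to the annotated interval and do not stand for amounts of the mature RNA. Reads of the mature RNA, unspliced host RNA, a retained intron and a host exon over the member cannot be told apart in the table.

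Values are RPKM (reads normalised to the length of the gene and to the total of the column) for each allele, and the level of a gene is the mean of both alleles. Reads that covered no SNP entered neither allele, so that a gene can be listed at 0 because no SNP lies in reach of its reads. For the same reason differences in level between genes also hold differences in SNPs, which were not analysed here. The steps between the RPKM values gave back whole reads for all 77 members above 0. Allele-assigned reads came to 56627974, 50284966, 48178423 and 34120413 in replicates 1 to 4, and 1 read on 100 bp stood for 0.348 to 0.598 RPKM. All 5 embryonic stem cell markers had a mean of 29.5 RPKM (Pou5f1) or more. Of 5 fibroblast markers, Col1a2 lay at 145 to 186 RPKM over the libraries, Postn at 12.2 to 17.3, Col1a1 at 4.58 to 6.63, Thy1 at 1.19 to 1.80 and Lum at 0.0240 to 0.0672. The part of feeder cells in the results was not tested. Fewer cells of a type and less RNA per cell cannot be told apart in such bulk samples. Over 1061 genes of the X chromosome, of which a male line holds the maternal S129 copy, 0.111 to 0.131% of the assigned reads were on CAST.

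Reads on the members were concentrated on a few genes. Their sum was 200217, 138724, 143021 and 123970 reads in replicates 1 to 4, or 0.354, 0.276, 0.297 and 0.363% of the assigned reads. Scarna13 (283468 reads over the 4 libraries), Scarna9 (146251) and Scarna10 (49764) together held 78.2 to 80.8% of these reads in every library. Without these 3 genes, the members held 0.0736, 0.0601, 0.0637 and 0.0699% of the assigned reads. The 9 Scarna genes held 79.2% of all member reads, against 10.7% for the 74 Snord and 10.1% for the 36 Snora genes. The sequences of the 2 highest members and of Snord104, the highest Snord gene, are shown because the largest values in the table rest on them, in lower case and 5′ to 3′, with a C box (ATGATGA or GTGATGA), a D box (CTGA) or an ACA in capitals. They were read from the GENCODE M21 transcripts on mm10. Scarna9 lies at chr9:15326264-15326333 on the minus strand in intron 5 of Cep295, a gene of a centrosomal protein. Scarna13, also known as U93, lies at chr12:105031075-105031349 on the minus strand in intron 1 of the noncoding gene Snhg10. Snord104 lies at chr11:106500993-106501062 on the plus strand, with no annotated host gene on its strand.
Scarna9: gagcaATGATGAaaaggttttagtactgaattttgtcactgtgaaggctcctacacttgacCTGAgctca
Scarna13: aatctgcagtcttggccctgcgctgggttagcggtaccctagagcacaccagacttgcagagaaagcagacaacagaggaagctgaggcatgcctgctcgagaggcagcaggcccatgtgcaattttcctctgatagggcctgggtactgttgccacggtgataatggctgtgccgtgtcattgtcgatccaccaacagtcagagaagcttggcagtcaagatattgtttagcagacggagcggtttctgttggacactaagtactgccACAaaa
Snord104: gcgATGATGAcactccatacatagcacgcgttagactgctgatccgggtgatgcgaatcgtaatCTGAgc

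Scarna9 was the member with the highest level, at 12620, 9657, 10730 and 11676 RPKM in replicates 1 to 4 (mean 11171 ± 1270, SD, n = 4). Its annotated interval is 70 bp long and holds a C box and a D box. Scarna13, of 275 bp, had more reads but a lower level per length, at 5815, 4660, 4928 and 6681 RPKM (5521 ± 918). Both were lowest in replicate 2, and Scarna9 was highest in replicate 1 and Scarna13 in replicate 4. Snord104 followed at 877, 849, 788 and 937 RPKM (863 ± 61.9). Scarna10, also known as U85, a composite RNA that guides changes in U5 spliceosomal RNA, lay at 995, 636, 713 and 880 RPKM (806 ± 162), and the ranges of Snord104 and Scarna10 over the libraries overlapped. Below them came Snora81 (543 ± 67.8), Snord99 (460 ± 46.2), Snord52 (316 ± 25.7), Snord15b (307 ± 14.5), Snora65 (293 ± 29.8) and Snora61 (269 ± 54.1). The neighbours Snord52, Snord15b, Snora65 and Snora61 in this order did not differ beyond their spread.

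**Figure D1:**
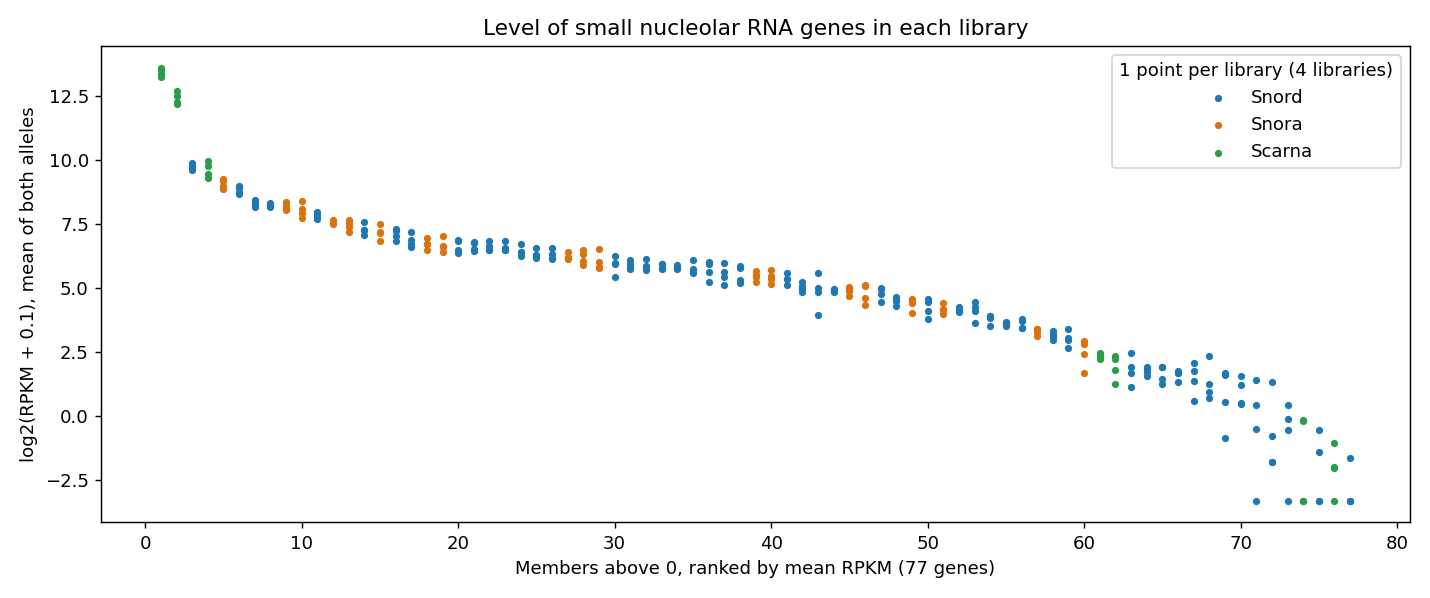
The 77 members above 0 on the x axis, ranked by mean level, with log2(RPKM + 0.1) of both alleles on the y axis and 1 point for each of the 4 libraries. Scarna9 and Scarna13 stand above all others in every library, and points of a gene spread apart among members with few reads.

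The median spread of members between libraries was larger than that of all genes, with reads not matched beyond a floor of 100. Counting error is larger for fewer reads, and its part in this difference was not tested. Among the 61 members with at least 100 reads, the coefficient of variation over the 4 libraries had a median of 13.5% (3.38% for Snord15a to 43.3% for Snord68), beside 9.92% over the 14389 genes with at least 100 reads. Of these 61 members, 34 were highest in replicate 1 and 18 in replicate 4, while 4 were highest in replicate 2 and 5 in replicate 3. Replicate 2 held the lowest value of 32 of them. Replicates 1 and 4, in which most members were highest, were also the libraries with the larger share of reads on members, and the cause was not tested.

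Many members were listed at 0. In all, 77 of 119 members (64.7%) were above 0 in at least 1 of the 8 allele columns, beside 84.3% of all 24026 genes. The shares were 51 of 74 Snord, 19 of 36 Snora and 7 of 9 Scarna genes, and 70 members had at least 20 reads. Snora genes were either well covered or at 0: the 19 above 0 had 151 to 18233 reads each, and the other 17 had none. Among the Snord genes above 0, 5 had fewer than 20 reads, from 14 for Snord90 down to 1 for Snord12. The median level of all members was 5.95 ± 0.757 RPKM, beside 0.975 RPKM over all genes. Members are short, with a median of 94 bp, and 1 read stands for more RPKM on a short gene. These 2 medians therefore do not compare numbers of reads. Among members above 0, it was 73.2 ± 11.6 RPKM for Snora, 37.5 ± 7.43 for Snord and 5.05 ± 0.228 for Scarna genes. Between the classes, differences in the median log2(RPKM + 0.1) over all members were 0.20 ± 0.40 for Snord minus Snora (exact sign-flip permutation test, two-sided, p = 0.375, n = 4), -1.21 ± 0.62 for Scarna minus Snord (exact p = 0.125, n = 4) and -1.01 ± 0.42 for Scarna minus Snora (exact p = 0.125, n = 4). With 4 libraries, this test cannot go below 0.125, and none of these class comparisons passed the threshold (adjusted p of 0.25 to 0.5). The adjustment was over 4 tests, among them that of exon overlap below. The order of Snord and Snora turned over when members at 0 were left out (-0.97). Scarna genes held the highest single members and the lowest median, and with members at 0 left out they lay lower by more (-2.85 from Snord and -3.82 from Snora). Scarna3a and Scarna6 were at 0, and Scarna17 and Scarna3b had 6 and 5 reads.

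The members of imprinted clusters were among those at 0. Snord64, Snord116l1 and Snord116l2 are listed in the table and lie in the Prader-Willi region of chromosome 7, which is expressed from the paternal copy and best known in neurons. They were at 0 in all 8 columns. Their region was not silent in the table, since Snhg14, the host of both Snord116 copies, lay at 10.6 ± 1.35 RPKM. Snord116l1 and Snord116l2 are identical over their 94 bp, so that reads wholly within this interval could not be placed on 1 copy. The sequence around the copies was not compared.

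The annotation places most members inside other genes. Of the 119 members, 112 lie within a gene on the same strand, 85 of them within a protein-coding gene and 32 within a gene of a ribosomal protein. Snord104, Snora17, Snora43, Snord118, Snord13, Scarna2 and Scarna17 have no such host. From the member to the next exon of the host, the median distance was 92 bp for Snord (interquartile range 71 to 231, 71 genes), 172 bp for Snora (77.3 to 309, 34 genes) and 249 bp for Scarna genes (81.5 to 1720, 7 genes). A distance of 50 to 110 bp was found for 45 of 71 Snord, 11 of 34 Snora and 3 of 7 Scarna genes. In 54 cases, the member also overlapped an annotated exon of another gene on its strand. Of these, 32 were above 0, beside 45 of the 65 members with no such exon. The median log2(RPKM + 0.1) of members with an exon was higher by 0.18 ± 0.35 (exact sign-flip permutation test, two-sided, p = 0.5, n = 4), in 3 of 4 libraries. This difference turned to -1.30 when exons on either strand counted, and to -0.47 with reads in place of RPKM.

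**Figure D2:**
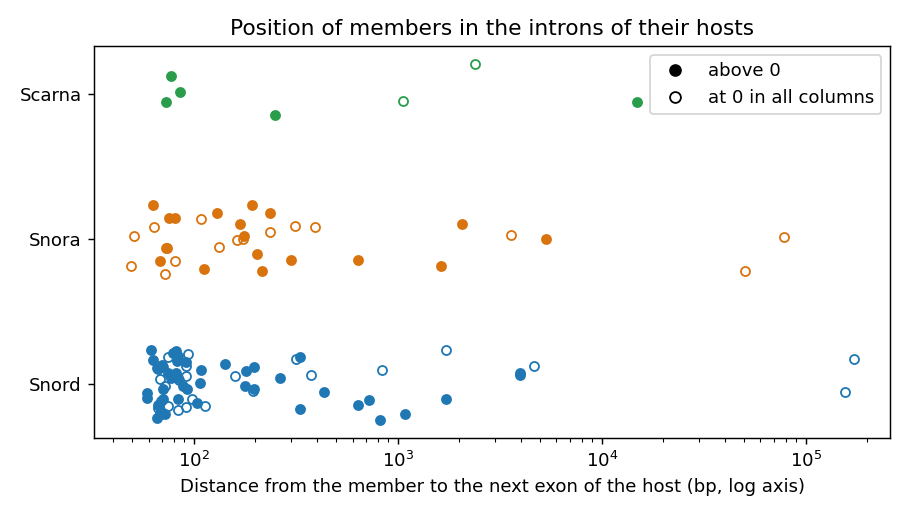
The distance from each member with a host intron to the next exon of that host on the x axis (bp, log axis), with Snord, Snora and Scarna genes on separate rows of the y axis, spread vertically at random to keep points apart. Filled points are above 0 and open points at 0 in all columns; the Snord points crowd between 50 and 110 bp whether or not they were above 0.

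Boxes were searched for in the annotated sequences as plain letters on the transcribed strand. A C box in the first 20 bases was found in 43 of 74 Snord genes, and a D box in the last 20 bases in 72. Both were present in 42 Snord genes, that is in 56.8%, beside 0.020% of 140209 other transcripts. An ACA in the last 8 bases was found in 34 of 36 Snora genes, beside 11.1% of the other transcripts. The H box (ANANNA) between 35 and 65% of the length was found in 33 of 36, beside 48.3% of 1916 other transcripts of 120 to 200 bases. Both C and D box were found in 15 of 23 Snord genes at 0 and 27 of 51 above 0, and both H box and ACA in 15 of 17 Snora genes at 0 and 16 of 19 above 0, with no test made of these differences. In addition, 32 members had another annotated small nucleolar RNA of at least 90% identity, 20 of them above 0, and the values of these genes are uncertain where reads could be placed on either copy. Among the members described here, they are Snora3, Snora16a, Snora17, Snora33, Snora61, Snora65, Snora81, Snord118, Snord1b, Snord1c, Snord14c and Scarna17. Among those at 0 they are Snora43, Snora44, Snord14d, Snord116l1 and Snord116l2.

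Neighbouring members of 1 host gene did not always share a level. In Rps12, Snord100 at 158 ± 23.2 RPKM and Snora33 at 147 ± 27.7 RPKM overlapped over the libraries, while members of other hosts stood apart. Several members were found in 21 hosts, and in 9 of these some members were at 0 and others above 0. The level of the host did not separate both kinds: hosts had a median of 255 RPKM (interquartile range 22.0 to 1746) for members above 0 and 233 RPKM (45.7 to 1209) for members at 0. Snora7a, for example, was at 0 within Rpl32 (5901 RPKM). Snhg12, a noncoding gene of chromosome 4, holds 4 members, shown in the order of transcription because members with many reads and one with none lie within 1 host, with the H box (ANANNA), ACA, C box and D box in capitals. They lie on the plus strand at chr4:132309464-132309600 (Snora16a), chr4:132309941-132310069 (Snora44), chr4:132310240-132310369 (Snora61) and chr4:132310691-132310764 (Snord99).
Snora16a: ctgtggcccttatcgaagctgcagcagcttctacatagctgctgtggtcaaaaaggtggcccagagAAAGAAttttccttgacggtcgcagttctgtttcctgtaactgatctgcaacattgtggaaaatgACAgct
Snora44: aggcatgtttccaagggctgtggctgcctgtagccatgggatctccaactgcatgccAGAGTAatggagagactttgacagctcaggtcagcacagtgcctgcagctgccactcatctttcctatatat
Snora61: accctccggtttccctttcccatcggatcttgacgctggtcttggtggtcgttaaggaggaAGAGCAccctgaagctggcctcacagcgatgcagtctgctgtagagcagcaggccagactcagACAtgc
Snord99: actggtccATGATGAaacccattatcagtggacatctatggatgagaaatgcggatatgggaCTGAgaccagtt

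Snord99 lay at 511, 410, 434 and 484 RPKM, Snora61 at 342, 215, 244 and 273, and Snora16a at 32.0, 29.4, 25.3 and 32.6. Snora44 was at 0 in every column. The ranges of the 4 members did not overlap, although they share 1 host with a level of 722 ± 78.4 RPKM. An exon of Snhg12 overlaps Snora61 in 5 of 10 listed transcripts, Snord99 in 3 and Snora16a in 2. The part of reads from such exons in these levels was not tested. In Rpl13a, a ribosomal protein gene of the large subunit, Snord32a had 1245 reads, Snord35a 943, Snord34 32 and Snord33 none. Snord15a and Snord15b of Rps3 had 836 and 8410 reads, Snord110 and Snord57 of Nop56 1521 and 41, and Snord2 and Snora81 of Eif4a2 none and 18233. Nop56 is itself a core protein of box C/D particles, and Nop58, another such protein, holds Snord11 with 893 reads and Snord70 with none.

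**Figure D3:**
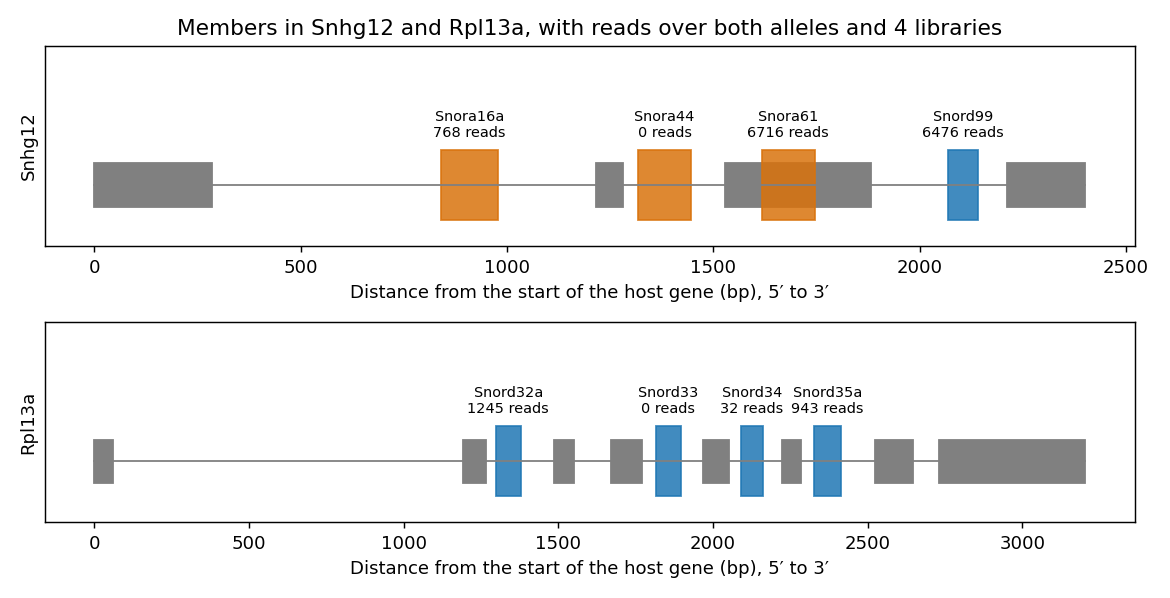
Maps of Snhg12 and Rpl13a, drawn to scale from the start of the gene (x axis, bp). Grey boxes are exons of the first listed transcript, orange boxes Snora and blue boxes Snord members with their reads over both alleles and 4 libraries; 1 member of each host had no read, and Snora61 lies within an exon of this transcript of Snhg12.

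Of the 7 members with no annotated host gene on their strand, 5 had at least 20 reads. Whether these members have promoters of their own was not tested. Snora17 lay at 185, 181, 185 and 199 RPKM (188 ± 7.90), with a coefficient of variation of 4.21%. Snord118, also known as U8, which is needed for processing of rRNA of the large subunit, lay at 99.4, 90.1, 88.6 and 114.8 RPKM (98.2 ± 12.1). Snord13, also known as U13, which guides acetylation of rRNA of the small subunit, lay at 61.8, 55.5, 53.4 and 60.7 RPKM (57.8 ± 4.05). The levels of Snora17, Snord118 and Snord13 did not overlap. Snord118 (chr11:69073427-69073561, plus strand) is printed since it is a box C/D member known for independent transcription, with the D box in capitals. No C box fell in the first 20 bases of its annotated interval.
Snord118: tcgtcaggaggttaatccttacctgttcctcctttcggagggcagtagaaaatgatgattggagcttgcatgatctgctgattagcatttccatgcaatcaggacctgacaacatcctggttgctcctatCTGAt

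Alleles of a member were compared within each library by limma on log2(RPKM + 0.1) over all 13341 genes with at least 1 RPKM summed over both alleles. Of 73 members tested, 19 were higher on S129 and 17 on CAST at an adjusted p under 0.05, and 37 were not called. Over all genes tested, 31.4% were higher on S129 and 31.3% on CAST, so that the 26.0 and 23.3% of the members lay below this background in both directions. In either direction, 49.3% of the members were called beside 62.7% of all genes. The gap was smaller with other filters, at 47.1 beside 53.3% with at least 20 reads and 40.3 beside 42.7% with no filter on low values. Reads were not matched between members and all genes. The median size of the difference was 0.37 for the members and 0.31 for all genes tested, and 10 members (13.7%) were called with a difference of at least 2-fold, beside 15% of all genes. By class, 12 Snord genes were higher on S129 and 11 on CAST, 5 Snora on each, and among Scarna genes 2 were higher on S129 and 1 on CAST. Without the pairing by library, 12 members were higher on S129 and 15 on CAST (37% called beside 48.2% of all genes, with 24.7% of all genes on S129 and 23.5% on CAST).

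**Figure D4:**
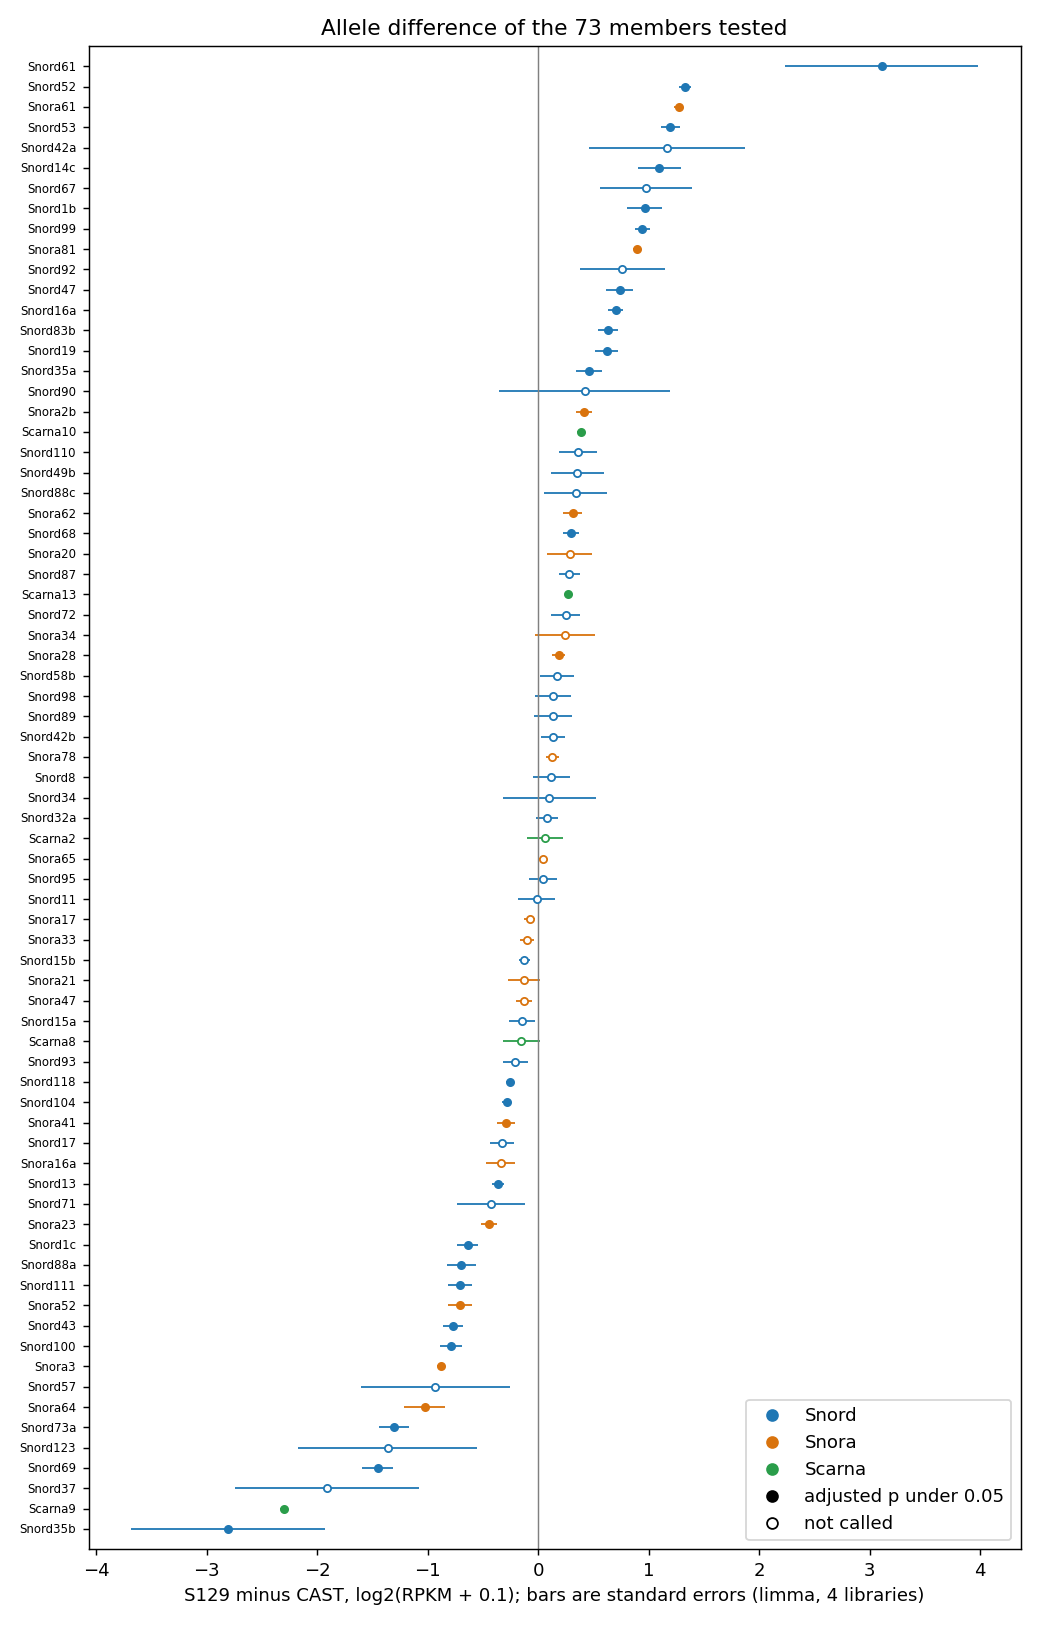
The difference S129 minus CAST of log2(RPKM + 0.1) on the x axis for each of the 73 members tested, with its standard error from limma over 4 libraries as a bar. Filled points passed an adjusted p of 0.05 and open points did not; Scarna9 lies far to the left with a short bar, while Snord35b and Snord61 at either end have few reads and long bars.

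Scarna9 had the smallest adjusted p of all members for a difference between alleles. On S129 it lay at 4446, 3181, 3617 and 3837 RPKM, and on CAST at 20794, 16133, 17844 and 19516 RPKM. Every CAST value was above every S129 value, and the difference was -2.30 ± 0.04 on the log2 scale (SE, adjusted p = 5.8e-06, limma). The S129 share of its reads was 18.1, 17.1, 17.4 and 17.0% in replicates 1 to 4. Its host Cep295 had a share of 49.9% (48.6 to 50.8% over the libraries), and the median of 25 neighbouring genes was 50.9%. Because of its many reads, Scarna9 set the balance of the members as a whole: S129 held 45.8 to 47.2% of all member reads with Scarna9 and 54.9 to 55.8% without it. The other Scarna genes with many reads leaned to S129, Scarna13 by 0.27 ± 0.03 (adjusted p = 0.0018) and Scarna10 by 0.38 ± 0.03 (adjusted p = 6.1e-04, both limma), and both of these calls were lost without the pairing. Scarna2 (0.06 ± 0.17) and Scarna8 (-0.15 ± 0.17) were not called, with adjusted p of 0.77 and 0.46 by limma, and the sign of each turned when 1 library was left out. With the median of its chromosome taken out, Scarna2 was higher on S129 (0.80, adjusted p = 0.015, limma). Its neighbouring genes on chromosome 3 had a median share of 37.7%, beside 51.7% for Scarna2 itself. Scarna10 was at 0.19 in this setting and kept its call.

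Snord104, the Snord gene with the most reads, was also higher on CAST, at 760, 774, 725 and 852 RPKM on S129 and 993, 924, 851 and 1022 on CAST (-0.28 ± 0.04, adjusted p = 0.0041, limma). CAST was higher in 4 of 4 libraries, although the ranges of the alleles just overlapped. Larger differences in this direction were found for members with fewer reads. Snord69, in an intron of Gnl3, a gene of the nucleolar protein nucleostemin, lay at 9.56, 7.79, 5.60 and 6.46 RPKM on S129 and at 19.7, 20.3, 16.9 and 23.2 on CAST, a difference of -1.45 ± 0.14 (adjusted p = 0.0012, limma). Snord73a of Rps3a1 had 82.8, 77.3, 83.9 and 71.0 RPKM on S129 and 230, 154, 177 and 228 on CAST (-1.31 ± 0.14, adjusted p = 0.0016, limma). The alleles did not overlap in either gene. For Snord73a, the host (25.3% S129) and the median of the neighbouring genes on chromosome 3 (36.7%) were low on S129 too, beside 29.6% for the member itself, and with the median of the chromosome taken out the difference was -0.57. Snora3 of Rpl27a lay at 130, 100.3, 116.3 and 148 RPKM on S129 and 241, 192, 217 and 259 on CAST, with a difference of -0.88 ± 0.04. Snord100 of Rps12 had a difference of -0.79 ± 0.10. Both passed the test, with adjusted p of 9.8e-05 and 0.0027 by limma. Snord35b had the largest difference on this side, -2.81 ± 0.88 (adjusted p = 0.046, limma), but only 48 reads, and its call was lost in 5 of 12 settings, among them the fits without replicate 1 (-3.26), replicate 2 (-3.12) or replicate 3 (-3.09).

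Among the members higher on S129 was Snora81, the Snora gene with the most reads. Snora81, a box H/ACA RNA in intron 7 of the translation factor gene Eif4a2 on chromosome 16, lay at 746, 616, 665 and 794 RPKM on S129 and 410, 322, 349 and 444 on CAST, a difference of 0.89 ± 0.03 (adjusted p = 8.0e-05, limma). Its S129 share of 65.8% stood beside 70.7% for Eif4a2 and a median of 63.4% for 67 neighbouring genes. An exon of Eif4a2 overlaps Snora81 in 2 of 25 listed transcripts. With the median of its chromosome taken out, the difference of Snora81 was 0.20, and it kept its call. Snord52 lay at 487, 442, 455 and 421 RPKM on S129 and 209, 168, 190 and 154 on CAST (1.33 ± 0.05, adjusted p = 8.6e-05, limma). In Snhg12, both abundant members were higher on S129, Snora61 by 1.27 ± 0.04 and Snord99 by 0.94 ± 0.07 (adjusted p of 4.4e-05 and 5.0e-04, limma), with shares of 71.4 and 66.5% beside 62.6% for Snhg12. Snora16a in the same host had a share of 44.4% and was not called (-0.34 ± 0.13, adjusted p = 0.083, limma). Snord61, on the X chromosome, had the largest fitted difference, 3.11 ± 0.87, but only 10 reads, none of them on CAST, so that its size rests on the 0.1 added to each value. A male line holds no CAST copy of the X chromosome, so that the direction of Snord61 was fixed in advance. Snord61 is among the 19 members called higher on S129 and the 10 called with at least a 2-fold difference. Genes of the X chromosome were also kept among all genes tested.

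Pairs with a near-identical copy were also called. Snord1b and Snord1c differ at 2 positions (97.4% identity), lie in 1 host, and had 874 and 854 reads. Snord1b was higher on S129 by 0.97 ± 0.16 and Snord1c on CAST (-0.64), so that the calls of the 2 copies point in opposite directions. Snord14c and Snord14d of Hspa8, the gene of a constitutive heat shock protein, belong to the U14 family, which is needed for processing of rRNA of the small subunit, and likewise differ at 2 positions. Their sequences are shown since all 781 reads were listed on Snord14c and none on Snord14d, with the C and D boxes in capitals. Snord14c lies at chr9:40803583-40803668 and Snord14d at chr9:40803995-40804080, both on the plus strand.
Snord14c: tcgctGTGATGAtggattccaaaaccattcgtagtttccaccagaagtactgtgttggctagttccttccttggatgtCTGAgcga
Snord14d: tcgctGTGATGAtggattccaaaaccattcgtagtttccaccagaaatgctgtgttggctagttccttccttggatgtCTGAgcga

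Snord14c lay at 73.6, 45.3, 64.9 and 70.2 RPKM on S129 and at 51.8, 23.1, 22.1 and 27.1 on CAST, a difference of 1.10 ± 0.19 (adjusted p = 0.0083, limma). The alleles overlapped in range, since CAST in replicate 1 was above S129 in replicate 2, but S129 was higher in 4 of 4 libraries. The S129 share of Snord14c was 67.1% (exact Clopper-Pearson 95% interval 63.7 to 70.4%) against 33.2% for Hspa8. Which of the reads came from Snord14d cannot be told apart.

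The share of a member stood apart from that of its host at a rate close to that of neighbouring genes. Over 62 members with at least 20 reads and a host in the table (49 hosts), the S129 shares of member and host had a Spearman correlation of 0.005 across genes, and their levels one of 0.11. Members of 1 host share its values, and genes are not independent replicates. The median size of the difference was 9.45 percentage points (interquartile range 3.90 to 17.6), and the exact interval of the member held the share of the host in 20 cases. In 34 of 62 pairs (54.8%) the shares of the 4 libraries did not overlap between member and host, beside 48.2% of 15471 pairs of a protein-coding gene and the next one on its chromosome, whose median difference was 7.77 points (3.19 to 15.97). The share of pairs apart was thus close to that of neighbouring genes, with no test made of the difference. Reads were not matched between these sets of pairs. Member and host lay on opposite sides of 50% in 35 pairs, and the member had the higher share in 40. Neither count was made for the pairs of neighbouring genes. In 14 pairs the member had the higher level, led by Scarna9 at 493 times Cep295, Snord111 at 212 times Sf3b3 and Scarna13 at 145 times Snhg10. The level of a host also rests on its SNPs, and Sf3b3, a gene of a splicing factor, was listed at only 0.106 RPKM. The median level of a member was 0.119 times that of its host.

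**Figure D5:**
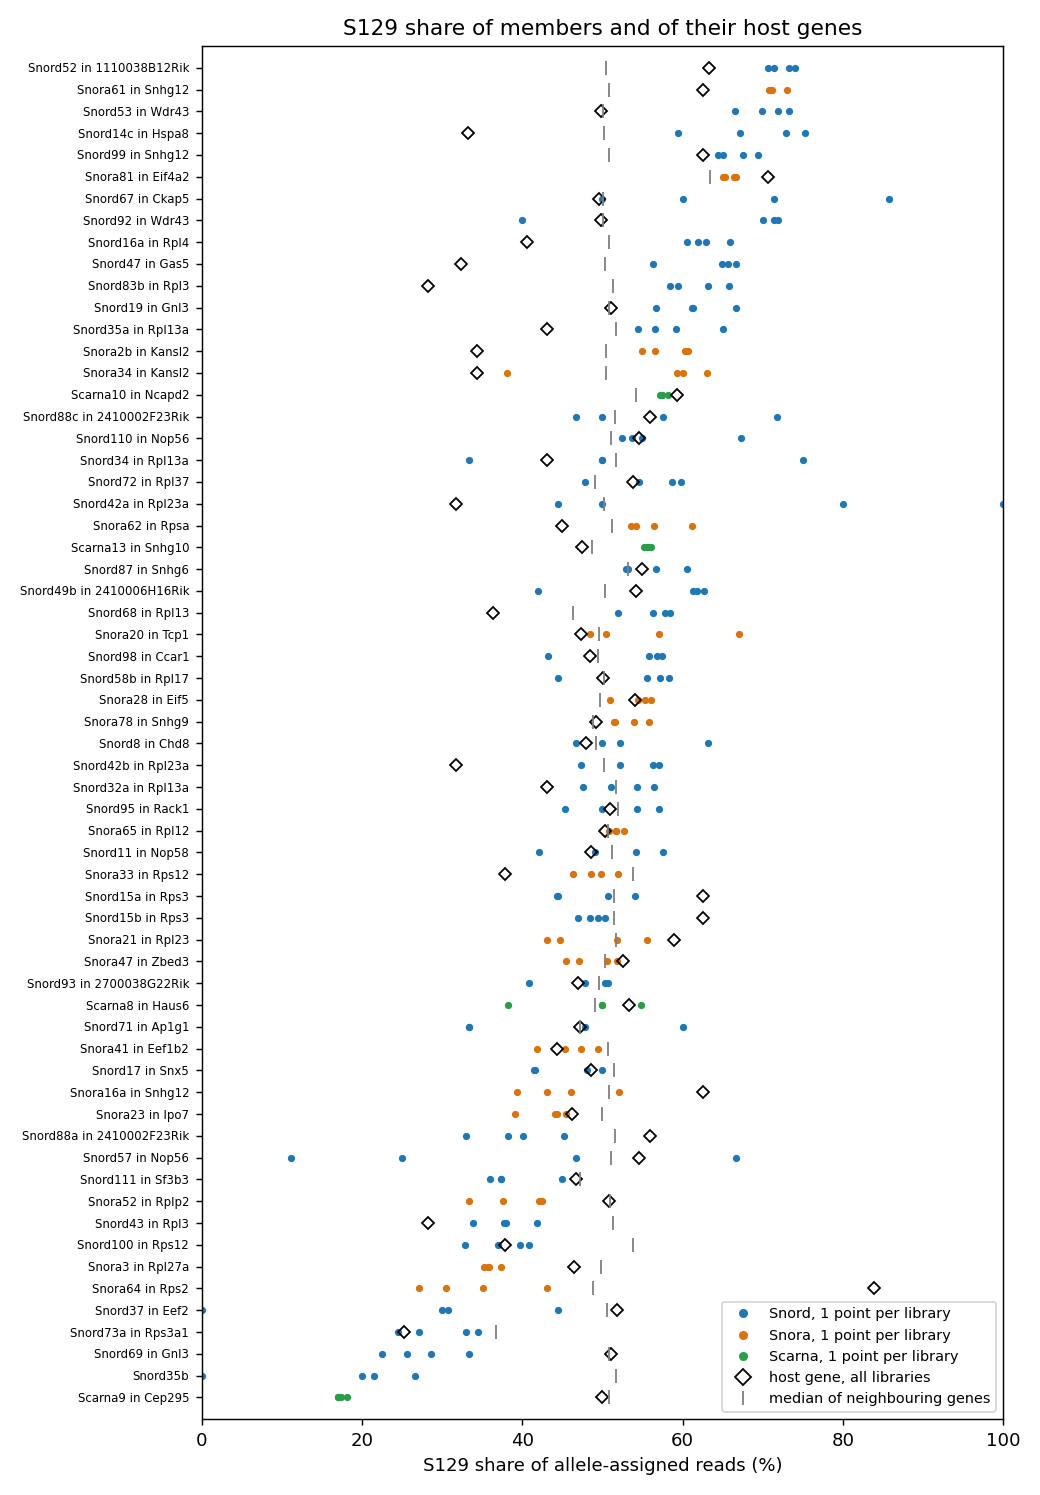
The S129 share of allele-assigned reads (x axis, %) for 62 members with at least 20 reads, each on a row of the y axis, with 1 coloured point per library, an open diamond for the host over all libraries, and a grey tick for the median of neighbouring genes. No host is drawn for Snord35b. Snora64 lies far to the left of its host Rps2, and Snord14c, Snord83b and Snord47 lie to the right of theirs.

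Snora64, Snord43, Snord83b and Snord53 are shown because Snora64 had a far lower share than its host, Snord83b and Snord53 had far higher ones, and Snord43 lies in the same host as Snord83b. Snora64 lies at chr17:24720772-24720905 on the plus strand in intron 4 of Rps2, Snord43 at chr15:80082847-80082954 and Snord83b at chr15:80078498-80078591 on the minus strand of Rpl3, and Snord53 at chr17:71640879-71640956 on the plus strand in intron 10 of Wdr43, a gene of small subunit processing. Capitals mark the H box and ACA of Snora64 and the C and D boxes of the others, where the search found them.
Snora64: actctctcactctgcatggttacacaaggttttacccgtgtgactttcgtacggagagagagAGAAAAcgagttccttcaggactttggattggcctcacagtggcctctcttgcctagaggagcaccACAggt
Snord43: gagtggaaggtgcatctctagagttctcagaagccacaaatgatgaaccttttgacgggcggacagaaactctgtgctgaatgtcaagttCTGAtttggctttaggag
Snord83b: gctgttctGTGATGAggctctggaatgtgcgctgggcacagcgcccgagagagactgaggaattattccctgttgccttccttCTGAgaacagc
Snord53: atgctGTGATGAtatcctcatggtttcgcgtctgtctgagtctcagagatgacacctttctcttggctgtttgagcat

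Snora64 lay at 20.5, 10.5, 16.7 and 28.3 RPKM on S129 and at 48.2, 29.4, 32.2 and 38.8 on CAST (-1.03 ± 0.18, adjusted p = 0.0087, limma), and no S129 value reached the lowest CAST value. Its S129 share was 33.6% (30.1 to 37.2%), and that of its host Rps2 was 83.9%. An exon of Rps2 overlaps Snora64 in 2 of 8 listed transcripts. Within Rpl3, Snord43 had a share of 38.2% (36.8 to 39.6%) and Snord83b one of 62.0%, while the host had 28.2%. Snord43 lay at 187, 154, 196 and 146 RPKM on S129 and 315, 264, 282 and 297 on CAST (-0.77 ± 0.09, adjusted p = 0.0021, limma), and Snord83b was called the other way (0.63 ± 0.09, adjusted p = 0.0047, limma). Snord53 lay at 157, 109, 128 and 168 RPKM on S129 and 70.0, 57.3, 52.1 and 63.7 on CAST (1.20 ± 0.09, adjusted p = 5.2e-04, limma), with a share of 70.3% beside 49.8% for Wdr43. Snord47 of Gas5, a noncoding host of many box C/D RNAs, lay at 21.7, 21.2, 21.2 and 23.9 RPKM on S129 and 12.1, 11.6, 17.0 and 12.4 on CAST (0.74 ± 0.12, adjusted p = 0.0068, limma), with a share of 63.0% beside 32.3% for Gas5. In Snord43, Snord53 and Snord47 the alleles did not overlap.

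The proteins that act with these RNAs were read from the same table. Of 28 genes in a list of core proteins, assembly factors and Cajal body proteins, 27 were in the table, at 7.76 to 553 RPKM with a median of 68.2. The core proteins of box C/D particles lay at 397 ± 99.5 RPKM for Fbl, which encodes the methyltransferase fibrillarin, 336 ± 46.8 for Nop58, 273 ± 22.8 for Snu13 and 224 ± 13.5 for Nop56. Those of box H/ACA particles lay at 553 ± 48.8 RPKM for Nhp2, 406 ± 74.9 for Nop10, 48.2 ± 4.63 for Dkc1, which encodes the pseudouridine synthase dyskerin, and 37.3 ± 11.2 for Gar1. Dkc1 lies on the X chromosome, with 96.3 RPKM on S129 and 0.0516 on CAST, so that the direction of its call was fixed in advance as well. Coil, the gene of the Cajal body protein coilin, lay at 30.4 ± 2.76 RPKM, and Wrap53, whose protein carries small Cajal body RNAs to that body, at 68.2 ± 6.39. Of the 27, 10 were higher on S129, 7 on CAST and 10 were not called, so that 63.0% were called beside 62.7% of all genes. Naf1, an assembly factor of box H/ACA particles, was higher on CAST (-0.86 ± 0.04 as S129 minus CAST, adjusted p = 1.3e-04, limma), as was Smn1 (-0.83 ± 0.06, adjusted p = 4.2e-04, limma), whereas Snu13 was higher on S129 (0.41 ± 0.04, adjusted p = 0.0010, limma). Fbl was higher on CAST by a smaller difference (-0.23 ± 0.05, adjusted p = 0.013, limma).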

How the data were processed

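Untreated F123-ESCs were measured by RNAseq in 4 libraries. Per the labels and the methods of the study, the authors checked reads with FastQC, removed rRNA reads with SortMeRNA, trimmed with Trimmomatic (0.40), aligned with STAR to mm10 masked at strain SNPs, and assigned reads to S129 or CAST by SNPsplit. The table as deposited gives an RPKM for every gene on each allele, beside log10 of the authors' averages, which were not used. The counting program and annotation are not given in the sources used here. Per the file headers, all 8 allele columns carry a library number, and no column belonged to another sample. Libraries held 34120413 to 56627974 allele-assigned reads.

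Genes were matched by identifier to GENCODE M21 (24003 of 24026). Reads were recovered as RPKM times gene length and column total, within 0.02 of a whole number for 77 of 77 members above 0. Exact binomial intervals (Clopper-Pearson, 95%) cover counting error only, since reads are not independent molecules. Alleles were compared with limma (3.58.1 in R 4.3.3) on log2(RPKM + 0.1), taking S129 minus CAST inside each library and fitting the mean alone, over genes with at least 1 RPKM, with Benjamini-Hochberg adjustment. Differences of low values are understated on this scale. Columns of 1 library are paired because they come from the same RNA. Over 13341 genes, deviations from the allele mean correlated by 0.105 to 0.195 within a library and by -0.155 to 0.140 between libraries. These ranges overlapped, and such deviations sum to 0 over the libraries, so the correlations do not decide on the pairing. Classes were compared by exact two-sided sign-flip permutation over the libraries. Neighbouring genes lie within 5 Mb and hold at least 100 reads. Boxes were searched with Python 3.11.15. The scripts were tested on simulated data. Some genes and a sequence are not reported here.

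Members and lists were chosen with earlier results of these data known. Genes named follow a rule: the 8 members highest by RPKM and by reads, up to 8 called per direction with at least 20 reads, members of imprinted families, Scarna genes with at least 20 reads, hosts and proteins of the particles. Other members were named after their values were seen. Alternatives were another pseudocount, other filters, a variance trend, chromosome medians taken out, no pairing and each library left out. Added after seeing the data were reads plus 0.5 in place of RPKM, each allele alone, members above 0 only, and member reads without the top 3 genes.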

Additional observations from a re-analysis of the deposited data

How the results depend on the processing

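The counts of members called on S129 and CAST (19 and 17), tested against another pseudocount, filters on low values, a variance trend, chromosome medians and reads in place of RPKM, stayed within 1.5 times, and leaving out each library gave 16 to 18 on S129 and 15 to 19 on CAST. Without the replicate block, 12 members were called on S129, and of the protein genes 6 on S129 and 3 on CAST (10 and 7 with it). Leaving out each library gave 3 to 6 protein genes on CAST. Of 253 differences of 23 named members under these alternatives, 242 kept direction and call, 7 lost the call, 2 gained it (Scarna2, at 0.80 with chromosome medians taken out, and Snord15b with a variance trend) and 2 turned: Scarna2 was -0.085 without replicate 4 (up to 0.22 without another library) and Scarna8 0.035 without replicate 1 (down to -0.28). The cause was not tested.

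The median level of 5.95 RPKM became 53.6 among members with at least 20 reads, 35 as reads per library and 8.44 for all genes annotated as snoRNA or scaRNA. The exon difference turned to -1.30 with exons on either strand and -0.47 with reads. Snord minus Snora turned to -0.066 on CAST alone and -0.97 among members above 0. The median difference from the host was 8.84 percentage points with at least 100 reads and 8.82 to 9.91 with each library left out. Without the top 3 genes, members held 0.0668% of assigned reads instead of 0.322%. Reads without a SNP, reads longer than many members and polyA selection limit all values, and a member listed at 0 is not shown to be absent.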
